A study of Mus musculus with 5 samples.

Results

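The subunits of oxidative phosphorylation were examined in 5 mouse samples, each hybridised to 1 array. Members were all probe sets whose platform gene symbol began with Nduf, Uqcr or Atp5, or with Cox followed by 4 to 8, together with Sdha to Sdhd and Cyc1. The rule reads gene symbols only. It gave 100 probe sets for 72 genes, of 12422 probe sets without controls and 8251 genes named by 1 symbol. A further 10 probe sets carried a member symbol beside that of another gene or pseudogene and were not assigned to a gene.

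The series holds a single group. Per the labels, all 5 samples were dendritic cell progenitors of mouse bone marrow carrying the receptor FLT3 and the integrin chain CD11b, and total RNA was measured. The labels give neither strain, age, genotype nor treatment, and do not say whether the samples came from separate animals, so the spread given here is that between these samples and may be technical. With no second group, no difference between conditions could be tested, and no p-value is given.

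Oxidative phosphorylation takes place in the inner mitochondrial membrane. Complexes I and II pass electrons from NADH and succinate to ubiquinone, complex III passes them on to cytochrome c, and complex IV, cytochrome c oxidase, to oxygen. The proton gradient built up by complexes I, III and IV drives ATP synthase. Most subunits are encoded in the nucleus and needed in nearly every cell, while a few subunits of complex IV exist as alternative isoforms used in heart, skeletal muscle, brown fat or testis.

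Signals below are deposited array intensities after each array was multiplied to a common median of 103.4, listed in the order of samples 1 to 5. A probe set was counted as above the limit when its signal exceeded the array median on all 5 arrays. The values came with no detection call, so this limit is a rank within the array and does not show presence or absence of a transcript, and signals of different probe sets are not compared as amounts. In these bulk samples, fewer cells that use a gene and less of its RNA per cell cannot be told apart. The genes of both antigens had signal above the limit, Flt3 at 571, 1212, 353, 1268 and 318 and Itgam at 789, 546, 223, 343 and 486. The arrays were not alike in quality: the ratio of 3′ to 5′ signal of the Gapdh control was 0.896, 1.06, 4.52, 3.42 and 2.01. The deposited median, which depends on how the authors scaled the values, was 391.6 in sample 1 against 66.5 to 81.25 in the others.

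Oxidative phosphorylation genes lay mostly in the upper part of the signal range. Of the 100 member probe sets, 64 (64.0%) were above the limit, where 36.7% of all probe sets were. A further 13 were above the median on some arrays and 23 on none. The median member lay 1.83 log2 units above the array median, against -0.20 for all probe sets. Among the 10% of probe sets with the highest mean log2 signal were 38 members. Counted by gene, with the probe set of highest mean log2 signal for each, 57 of 72 genes were above the limit, where 44.5% of the 8251 named genes were. Of the 10 probe sets shared with another symbol, 8 were above it.

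**Figure D1:**
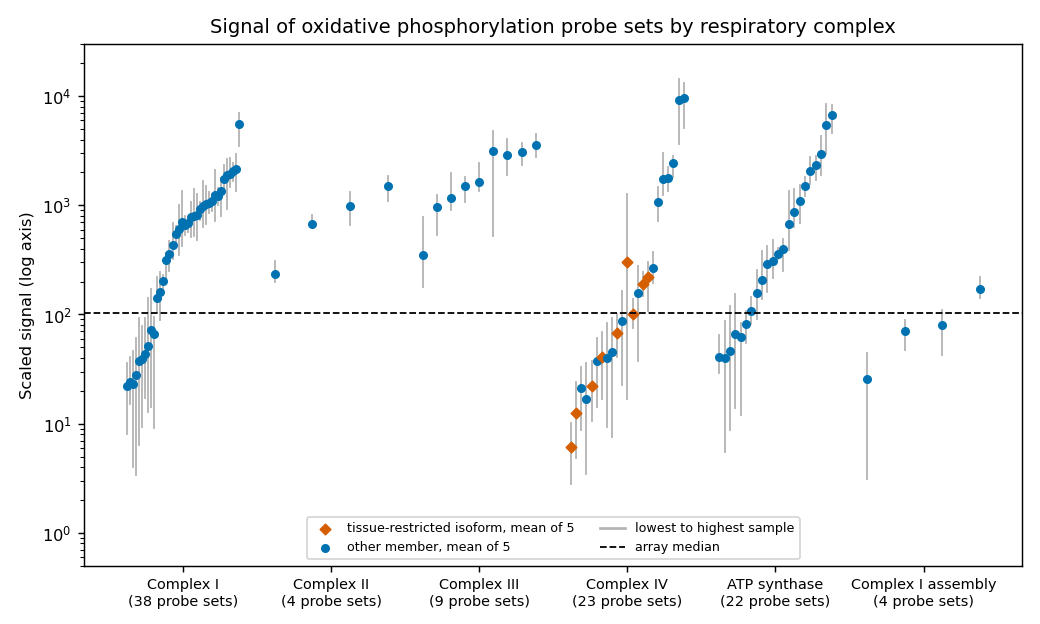
Mean scaled signal over 5 samples of each of the 100 member probe sets (points, log axis), with lines from the lowest to the highest sample, grouped by respiratory complex; diamonds mark tissue-restricted isoforms of complex IV and the dashed line the common array median of 103.4. All probe sets of complexes II and III lie above the median, while those of complexes I and IV and of ATP synthase fall on both sides.

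Promoters of the member genes were searched for words resembling the sites of factors known to act on respiratory genes. RefSeq windows of 300 bases (build GRCm38.p6, 250 before and 50 after the start) were at hand for 58 of the 72 genes, 63 windows in all. The NRF1-type word GCGCANGCG, on either strand, was in the windows of 15 of 58 member genes (25.9%), against 13.2% of 6572 genes named on the array and 7.0% of all 27025 genes of the table. In the 250 bases before the start alone it was in 10 of the 58 (17.2%), against 10.9% of the genes named on the array. An ETS-type word, CCGGAAG, was in 27.6%, against 17.1% and 9.9%. The YY1-type word AAGATGGCG was in 8.6%, against 3.0% and 1.6%, and the ERR-type word TGACCTT in 8.6%, against 4.4% and 5.4%. The median GC content of the windows was 58.7%, against 59.7% and 52.7%. In 31 of the 58 genes at least 1 of the words was found, and 5 held both the NRF1-type and the ETS-type word. For these counts no share over the genes named on the array was worked out, so they describe the members only. A match describes the letters of the window and does not show binding.

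The windows below show this range: Cox6a1, among the genes with the highest signal, Uqcrc1, highest in sample 1, Atp5l, with 3 of the words, and Cox7a1, a tissue-restricted isoform with none of them. They lie at chr5:115348909-115349208 (minus strand), chr9:108936398-108936697 (plus strand), chr9:44920693-44920992 (minus strand) and chr7:30183921-30184220 (plus strand), and are written 5′ to 3′ along the gene with matched words in capitals. Overlapping matches of the near-palindromic NRF1-type word run together.
Cox6a1: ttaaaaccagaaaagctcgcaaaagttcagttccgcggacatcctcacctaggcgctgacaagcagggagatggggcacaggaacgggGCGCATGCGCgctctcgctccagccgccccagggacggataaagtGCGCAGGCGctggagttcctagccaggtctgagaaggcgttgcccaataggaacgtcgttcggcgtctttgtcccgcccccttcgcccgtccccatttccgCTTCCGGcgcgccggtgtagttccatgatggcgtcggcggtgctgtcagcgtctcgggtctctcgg
Uqcrc1: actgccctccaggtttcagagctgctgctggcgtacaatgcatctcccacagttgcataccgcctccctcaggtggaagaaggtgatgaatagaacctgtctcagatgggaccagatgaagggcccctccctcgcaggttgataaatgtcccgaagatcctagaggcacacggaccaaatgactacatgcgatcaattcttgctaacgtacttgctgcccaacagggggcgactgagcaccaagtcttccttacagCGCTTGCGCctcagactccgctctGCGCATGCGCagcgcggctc
Atp5l: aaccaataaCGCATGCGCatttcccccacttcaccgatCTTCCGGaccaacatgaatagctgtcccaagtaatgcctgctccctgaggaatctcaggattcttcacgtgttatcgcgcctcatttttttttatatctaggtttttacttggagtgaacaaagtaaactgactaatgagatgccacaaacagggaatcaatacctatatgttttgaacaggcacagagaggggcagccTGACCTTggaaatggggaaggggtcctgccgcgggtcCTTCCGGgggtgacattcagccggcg
Cox7a1: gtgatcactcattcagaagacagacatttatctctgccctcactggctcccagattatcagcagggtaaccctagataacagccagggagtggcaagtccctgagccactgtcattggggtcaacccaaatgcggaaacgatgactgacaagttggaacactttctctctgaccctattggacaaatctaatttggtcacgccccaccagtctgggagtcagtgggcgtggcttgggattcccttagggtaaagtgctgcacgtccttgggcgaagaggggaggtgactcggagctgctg

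In Cox6a1 the NRF1-type word began 162, 161 and 117 bases before the start and the ETS-type word 16 bases before it. In Uqcrc1 all 3 NRF1-type matches began after the start, at positions 7, 31 and 32. Atp5l held an NRF1-type match 241 bases before the start, ETS-type matches 212 bases before and 25 after it, and an ERR-type match 13 bases before it. No word searched was found in the window of Cox7a1, whose signal was at most 100.2 in any sample.

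Complex I, the NADH dehydrogenase, had 27 of 38 probe sets and 24 of 29 genes above the limit. Over the array, 36.7% of all probe sets and 44.5% of named genes were. All 5 probe sets of the complex I core subunits were above it. Ndufv1, which binds NADH and its flavin, had 2123, 1502, 734, 1079 and 721, and Ndufs1, the largest iron-sulfur subunit, had 515, 606, 508, 641 and 463. Ndufv1 thus varied between samples more than Ndufs1, with SDs of 0.67 and 0.19 on the log2 scale. Ndufs3, a core subunit of the matrix arm, had 788, 712, 722, 566 and 687, and Ndufv2, a further iron-sulfur subunit, had 1761, 789.6, 1564, 1328 and 1291 on one probe set and 202, 208, 228, 226 and 156 on another. The samples of Ndufs3 lay close together, with an SD of 0.18 on the log2 scale.

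Accessory subunits of complex I spanned the range of the array. The genes with the highest signal in the complex were Ndufb5, of the membrane arm, at 4152, 6904, 5962, 6981 and 3470.0, and Ndufa3, at 2401, 1341, 1930.0, 2941 and 2082. Both come from probe sets with the suffix f, which in the array maker's naming marks probes matching several related sequences, so near-identical copies may contribute. A second Ndufa3 probe set, also with suffix f, was far lower at 108.9, 135.4, 222.6, 139 and 107.9. The genes with the lowest signal were Ndufa12 at 41.1, 15.1, 19.6, 22.7 and 22.7 and Ndufa1 at 143, 29.9, 12.8, 18.97 and 51.9. Ndufc2, Ndufs4 and Ndufa10 also missed the limit. Ndufs4, an accessory subunit whose loss in mice impairs complex I, had 93.05, 95.3, 9.14, 93.9 and 38.8, below the median on every array. Ndufa10 was above it on 4 arrays at 88.6, 244, 217, 131 and 127, with sample 1 lowest. The remaining accessory genes above the limit ran from Ndufv3 at 316 ± 65.4 to Ndufb2 at 2055 ± 289.9 on its highest probe set (mean ± SD, n = 5), and included Ndufab1, the mitochondrial acyl carrier protein, at 607 ± 244, and Ndufa13, also known as GRIM-19, at 428 ± 149.7. Ndufa2, Ndufa5, Ndufa6, Ndufa7, Ndufa8, Ndufa9, Ndufb3, Ndufb8, Ndufb9, Ndufb11 and Ndufc1 lay in the same range.

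Complex II and complex III stood above the limit throughout, where 36.7% of all probe sets did. Succinate dehydrogenase, which also belongs to the TCA cycle, had 4 of 4 probe sets there. Its flavoprotein gene Sdha had 227, 223, 221, 309.5 and 197 and its iron-sulfur gene Sdhb 1336, 1039, 658, 983 and 878. The membrane anchor genes Sdhc, at 618, 624, 618, 810.0 and 729, and Sdhd, at 1668, 1106, 1518, 1871 and 1412, were likewise above the median on every array. The median SD of the complex II probe sets was 0.26 on the log2 scale, from 0.18 for Sdhc to 0.37 for Sdhb. Sdha was highest in sample 4, the other samples lying between 197 and 227.

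All 9 probe sets of complex III, for 8 genes, were above the limit, and 8 of the 9 were among the top 10% of the array. Cyc1, cytochrome c1, had 4496, 2739.8, 4084, 3306 and 3223 on one probe set and 1014, 1232, 539, 1178 and 847 on the other. Uqcrq, a small accessory subunit, had 3737, 3391, 2319, 3319.8 and 2532. Uqcrb, which helps bind ubiquinone, averaged 2907 ± 803, and Uqcr10 1497 ± 275 (mean ± SD, n = 5). Uqcr11, at 779, 179, 229, 228 and 348, had the lowest mean log2 signal of the complex and was highest in sample 1. The core subunit genes deviated in opposite directions in that sample. Uqcrc1 had 1954, 913, 963, 914 and 1129, with sample 1 above all others, whereas Uqcrc2, its partner in the same core, had 518, 3712, 3903, 4815 and 2918, with sample 1 far below all others. In Uqcrc2 the highest sample exceeded the lowest 9.3-fold. Uqcrc2 was measured by a probe set with suffix f and Uqcrc1 by one without a letter.

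Complex IV had 9 of 23 probe sets (39.1%) above the limit, close to the 36.7% of all probe sets. By gene it had 9 of 15, where 44.5% of named genes were above. Among widely used subunits, Cox6a1 had 5105, 13264, 9393, 12011 and 8629 and Cox6c 3648, 14467, 10964, 10930.1 and 6434. Both were lowest in sample 1 and highest in sample 2, and both probe sets carry the suffix f. Cox5b, a matrix-side subunit, had 3016, 1255, 1376, 1597 and 1472, with sample 1 above the others. Cox7a2 had 2749.8, 1816, 2001, 2807 and 2801 and Cox7b 1342, 2023, 1930.4, 2224 and 1421. Cox7a2l, a relative of Cox7a2 involved in joining complexes III and IV into supercomplexes, had 712, 1467, 790.2, 1424 and 1015. On the probe sets given here all samples were well above the median of the arrays. Other probe sets of Cox6c, given below, were under it in every sample.

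Other subunits that cytochrome c oxidase needs in most cells missed the limit on this array. Cox8a had 25.6, 55.3, 60.8, 14.2 and 30.9, below the median in every sample. Cox5a had 70.6, 30.7, 25.3, 7.62 and 92.7 on one probe set and 65.4, 10.5, 9.41, 32.2 and 84.00 on the other, both below it throughout and both highest in samples 1 and 5. Cox6b1 was above the median in samples 1, 2 and 4 only, at 280.4, 233, 47.1, 191 and 37.2. Cox8a and Cox6b1 were read by 1 probe set each and Cox5a by 2, and a low signal does not show that the subunit was missing.

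**Figure D2:**
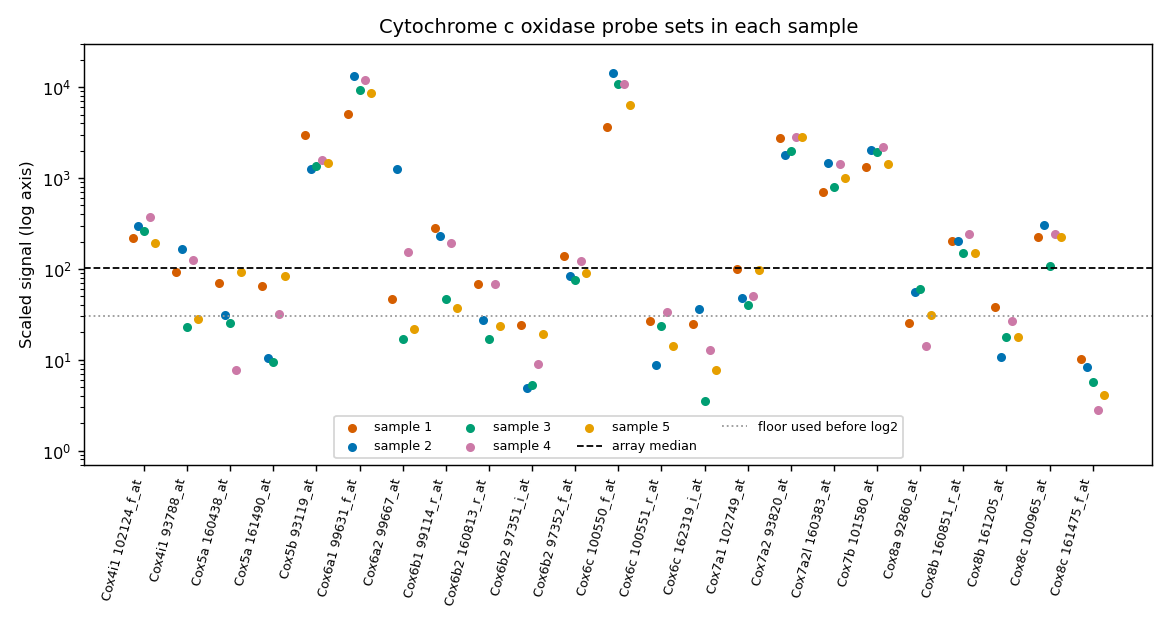
Scaled signal (log axis) of the 23 cytochrome c oxidase probe sets in each of 5 samples, with the array median of 103.4 (dashed) and the floor of 30.0 used before taking log2 (dotted). Cox6a1 and 1 probe set of Cox6c lie at 3648 or more in all samples, and Cox6a2 has 1274 in sample 2 with the other samples at 155 or less.

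Of the tissue-restricted isoforms of complex IV, 2 of 9 probe sets (22.2%) were above the limit, where 36.7% of all probe sets were. With 9 probe sets this count does not set the isoforms apart from the array. Cox6a2, the form of subunit 6a used in heart and skeletal muscle and also listed among transcripts of plasmacytoid dendritic cells in mouse, had 47.1, 1274, 16.8, 155 and 21.9. Sample 2 stood alone at 1274, sample 4 came next at 155, and the other samples were under the median. On the log2 scale its SD was 2.29, against a median of 0.42 for members with a mean above the array median. The gap between samples 2 and 4 was 0.56 of the whole range, below Dixon's critical value of 0.71, so sample 2 did not count as outlying by that rule. Cox7a1, the muscle and brown fat form, had 100.2, 47.9, 40.5, 50.9 and 98.00, below the median throughout. Cox8b, also of muscle and brown fat, was above it on 1 probe set at 202, 204, 148, 245 and 149 and not on the other at 37.7, 10.7, 17.8, 26.4 and 17.8.

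The testis forms gave a similar picture. Cox8c, known from human testis, was above the limit on 1 probe set at 225, 302, 108, 241 and 223, while the other had 10.1, 8.25, 5.65, 2.8 and 4.07, under the floor in every sample. Cox6b2 had 137, 83.9, 75.7, 122 and 89.2 on the probe set with suffix f. With suffix r it had 68.9, 27.03, 16.9, 67.8 and 23.6, and with suffix i 24.2, 4.84, 5.25, 9.02 and 19.1. None of these 3 probe sets exceeded the median on all arrays.

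Marker genes were set beside the single high value of Cox6a2. Of the plasmacytoid list, 6 of 9 genes were measured and 0 passed the limit, 5 being above the median on some arrays. Summed over the list, signal was 881, 617, 629, 366 and 661, so sample 2 lay within the range of the other samples. Tcf4, a transcription factor of these cells, had 158, 278, 216, 166 and 90.2, highest in sample 2, and Ccr9, a homing receptor, had 42.2, 52.5, 113, 59.1 and 76.2. Ly6d, a surface antigen, had 77.9, 37.7, 29.9, 18.04 and 32.7, and Irf7, an interferon regulatory factor, 112, 23.6, 15.3, 47.4 and 198, neither of them highest in sample 2. Of 8 striated muscle genes 1 was above the limit, Actc1, named after its values were seen, with 338, 216, 309.7, 476 and 377. The summed signal of the 8 was 638, 576, 480.1, 765 and 617, highest in sample 4. Without Actc1, a choice also made after seeing the values, the other 7 summed to 299.8, 360.1, 170.4, 289 and 239, highest in sample 2. Of these 7, 0 were above the limit, and Myh7 and Ckm made up most of the sum in sample 2. The myosin gene Myh7 had 48.8, 160.0, 16, 124 and 26.9, highest in sample 2 and next in sample 4. For marker genes with several probe sets, that with the highest mean log2 signal was used, and those of Myh7 and Actc1 carry the suffix f. The creatine kinase gene Ckm had 37.8, 114, 23.1, 27.7 and 134, highest in sample 5, and the actin gene Acta1 had 66.9, 23.5, 46.9, 75.3 and 21.6, highest in sample 4. The myoglobin gene Mb had 38.9, 22.3, 36.7, 8.55 and 10.8, under the median in every sample. B cell genes, 0 of 3 above the limit, summed to 467, 299.7, 119.8, 294 and 428, T cell genes, 0 of 2, to 54.3, 20.3, 37.6, 35.1 and 32.8, and erythroid genes, 0 of 2, to 67.3, 188, 50.8, 229.7 and 287. Neutrophil genes, 4 of 4 above the limit, summed to 29942, 76080.0, 51385, 105081 and 69806. In samples 2 to 5 most of this sum was S100a8, which had 9540, 68953, 41773, 82007 and 47618, lowest in sample 1. Elane, Mpo and Ltf were instead lowest in sample 2, at 2027, 3491 and 1609. The part of these marker genes in the Cox6a2 value was not tested.

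The genes nearest to Cox6a2 in pattern were ranked over the samples. Among 5399 probe sets of named genes with at least the median SD, the nearest by Euclidean distance of log2 deviations over 5 samples was Spsb1, at a distance of 1.41, with 35.3, 482, 36.04, 191 and 16.3. Cadm1 followed at 1.87 with 104, 989, 74.5, 86.8 and 42.4. H2aj lay at 1.99, Ctse at 2.12 and Mrvi1 at 2.53. They were picked for this likeness, so their high signal in sample 2 is no finding, and with 5 samples the ranking describes these arrays only.

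ATP synthase had 14 of 22 probe sets and 11 of 14 genes above the limit, where 36.7% of all probe sets and 44.5% of named genes were. In the catalytic F1 part, Atp5a1, the alpha subunit, had 4573, 8304, 8023, 7793 and 5082, and Atp5c1, the gamma subunit of the rotating stalk, 2746, 1567, 1851, 2511 and 1732 on one probe set and 1542, 681, 987, 1154 and 1158 on the other. Atp5a1 was lower in samples 1 and 5 than in the others, while both Atp5c1 probe sets were highest in sample 1. Atp5e, the epsilon subunit, had 1339.6, 392, 558, 597 and 516, also highest in sample 1.

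In the membrane part and stalk of ATP synthase, Atp5md had 2946, 6873, 8417, 5452 and 3583, lowest in sample 1, and Atp5mpl had 2658, 1866, 2816, 2709 and 1696. Atp5pb, subunit b of the outer stalk, had 139, 165, 166, 180.2 and 380.4, sample 5 standing above the rest, and Atp5o, which joins the stalk to the catalytic head, had 1410.1, 704, 632, 737 and 899.5. Atp5j, coupling factor 6, was even across samples at 1813, 1536, 1212, 1499.7 and 1393. The genes of the c ring through which protons pass differed by probe set: Atp5g2 had 252, 309, 482, 491 and 441 on one and 119, 23.8, 24.9, 57.2 and 8.78 on the other. Atp5g1 had 64.7, 99.2, 108, 54.7 and 84.4 on one and 65.4, 38.4, 29.1, 32.03 and 37.9 on the other, neither above the median on all arrays. The remaining genes under the limit were Atp5j2 at 82.1, 55.3, 12.1, 75.9 and 82.7 and Atp5k, above the median on 4 arrays, at 188, 116, 91.7, 137 and 256.

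Several genes had probe sets that disagreed. Of 21 genes with more than 1 probe set, 12 had probe sets on both sides of the limit. The same share over the other genes of the array was not worked out, so this count does not set the members apart. Beside the f probe set given above, Cox6c had 26.9, 8.68, 23.8, 33.3 and 14.00 on one with suffix r and 24.7, 35.9, 3.5, 12.8 and 7.64 on one with suffix i. Cox4i1, the widely used form of subunit 4, had 217, 294, 261, 374 and 192 on one probe set and 92.3, 165, 22.7, 124 and 27.9 on the other. The f probe set lay above the median in every sample and the other in samples 2 and 4. Atp5l, subunit g, had 4326, 3175, 2220.0, 3011 and 1896 without a suffix letter and 80.95, 93.03, 144, 99.99 and 123 with suffix f. Of 5 probe sets for Atp5d, the delta subunit, 3 were above the limit, and the samples of these 3 lay between 161 and 477. Of the other 2, one had 153, 77.7, 13.99, 59.9 and 26.7, and the last had 30.6, 5.55, 87.4, 16.6 and 61.4. Ndufb2 had 4 probe sets, with 1675, 1947, 2446, 2209 and 1997 on the highest and 17.4, 3.98, 30.4, 46.6 and 16.04 on the lowest. Members without a suffix letter were above the limit in 42 of 63 cases, those with f in 15 of 20 and those with r, for probes chosen under relaxed rules, in 3 of 11. The same classes over all probe sets had 39.0%, 36.0% and 16.1% above the limit.

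The remaining genes of this kind were Ndufb6, Ndufb7, Ndufb10 and Ndufaf1. Ndufb6 had 1428, 1423, 1064, 1221 and 1005 on one probe set and 9.32, 60.7, 30.4, 3.42 and 34.8 on the other, and Ndufb7 had 2344, 1818, 1410.4, 1521 and 1663 on one and 36.2, 10.8, 26.9, 8.09 and 29.3 on the other. Ndufb10 had 1348, 674, 422, 439.8 and 667 on one and 23.6, 67.6, 17.1, 18.5 and 92.7 on the other. In each of them the samples of one probe set lay wholly above those of the other. The symbol rule also took in 2 assembly factors of complex I, which are not subunits of the finished enzyme. Ndufaf1 had 201, 143, 155, 220.5 and 141 on one probe set and 75.6, 89.6, 80.2, 47.7 and 56.5 on the other. Ndufaf4 had 42.7, 48.4, 103, 96.7 and 109 on one and 12.99, 29.7, 3.09, 44.3 and 38.6 on the other. The first of these 4 probe sets was the one above the limit.

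Samples differed in member signal about as much as in that of other probe sets. For 68 members with a mean above the array median, log2 signal had a median SD of 0.42 over the samples, against 0.47 for all 5814 probe sets that passed this filter. Without sample 1 the same medians were 0.31 and 0.42. By complex the median SD was 0.42 for complex I, 0.26 for complex II, 0.41 for complex III, 0.49 for complex IV and 0.44 for ATP synthase.

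The medians of the complexes deviated in different directions in single samples, but their interquartile ranges all overlapped that of all probe sets. A shift here is the median over probe sets of log2 signal in a sample minus the probe set's own mean over the 5 samples. In sample 1 the members' shift was 0.17 with 40 of 68 above their own mean, against -0.05 for all probe sets, a difference of 0.22. In samples 2 to 5 the members' shifts were 0.05, -0.08, 0.11 and -0.15, against 0.07, 0.00, 0.19 and -0.08 for all probe sets. The differences there were -0.02, -0.08, -0.08 and -0.06. The other scalings gave 0.05 (quantile) and 0.01 (trimmed mean) for all probe sets in sample 4 in place of 0.19, so the shifts below are given relative to all probe sets.

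Relative to all probe sets, complex IV lay at 0.29 in sample 2 with 8 of 10 probe sets above, and ATP synthase at -0.34 in the same sample with 4 of 16 above. Complex III lay at 0.36 in sample 1 with 7 of 9 above, and ATP synthase at 0.30 with 10 of 16 above. In sample 4, complex I lay at -0.20 with 6 of 28 above, and complex IV at 0.20 with 9 of 10 above. Complex IV was at -0.26 in sample 3 with 4 of 10 above. All of these kept their sign under quantile normalization and under scaling to a trimmed mean, but quantile normalization left complex IV at 0.06 in sample 4 with 7 of 10 above. The values for 4 complex II probe sets ran from -0.16 to 0.11. Complex IV was not uniform by class of subunit. Without subtracting all probe sets, the shift in sample 3 was 0.00 for its 7 widely expressed probe sets. It was -0.64 for its 2 probe sets of tissue-restricted isoforms and -0.39 for Cox7a2l. In samples 2 and 4 the widely expressed ones had 0.21 and 0.38.

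**Figure D3:**
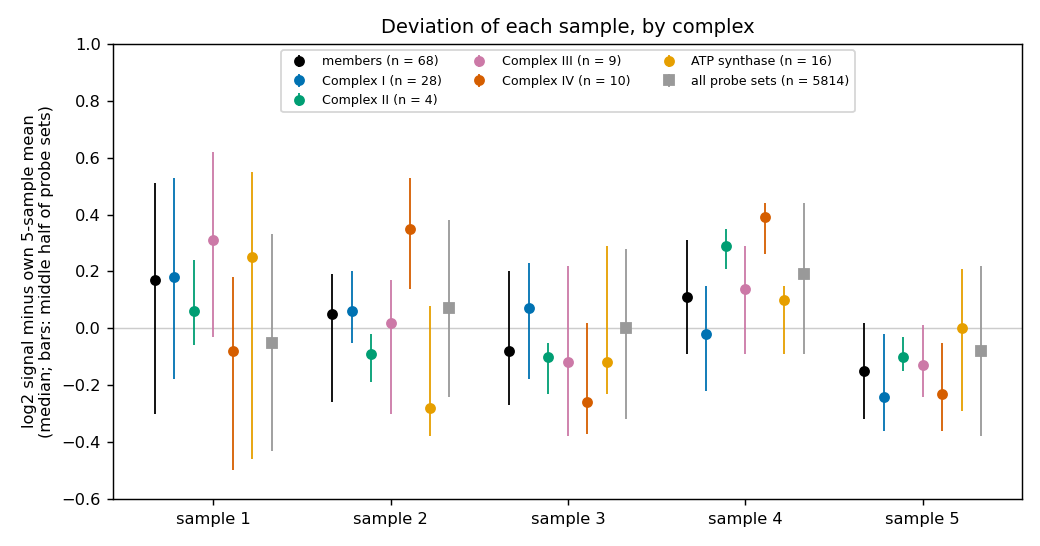
Median log2 deviation of each sample from the probe sets' own 5-sample means, for member probe sets with a mean above the array median, for each complex and for all probe sets (squares); bars span the interquartile range over probe sets. Complex IV and ATP synthase lie on opposite sides in sample 2, at 0.35 and -0.28, and the range of every group overlaps that of all probe sets in every sample.

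The deviation of sample 1 differed between classes of probe set. Of the members, 16 with suffix f had a shift of -0.37 there with 13 below their own mean, and 44 without a suffix letter had a shift of 0.22 with 30 above it. Over all probe sets the same classes had shifts of -0.39 for 505 with f and -0.03 for 4697 without a letter. The f members thus lay near all f probe sets, and the members without a letter lay above others of their class. In the top 25% of probe sets by mean signal the members' shifts were -0.58 with f and 0.23 without, against -0.48 and -0.07 for all probe sets. Cox6c, Cox6a1, Uqcrc2, Atp5md and Ndufb5 were among the f members below their own mean in sample 1, and Atp5a1 was below its mean there without carrying the letter. Sample 1 also had the lowest ratio of 3′ to 5′ signal for the actin control, 1.08 against 2.55 to 5.2 in the others. The part of the probe class and of RNA quality in these values was not tested.

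**Figure D4:**
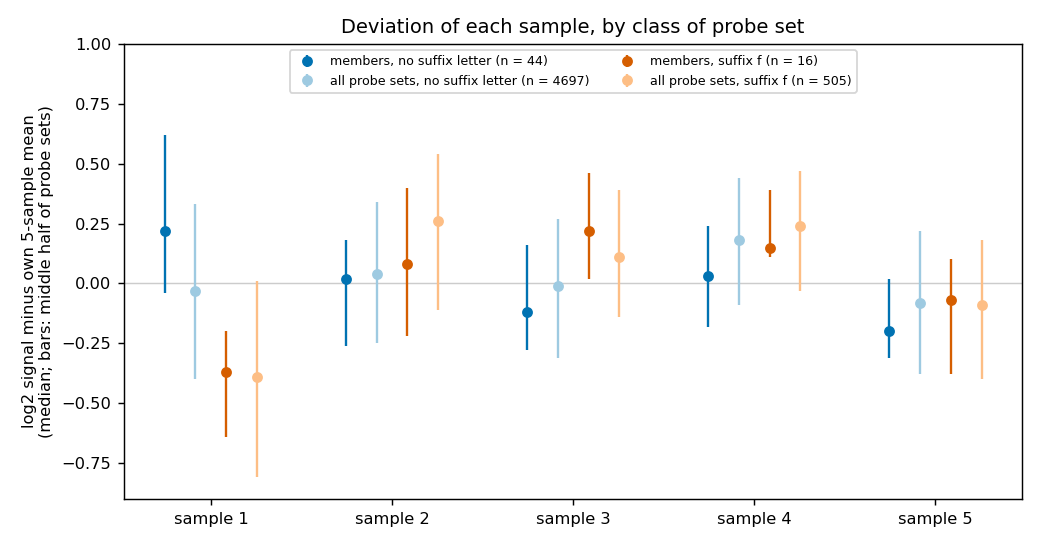
Median log2 deviation of each sample from the probe sets' own 5-sample means, for probe sets without a suffix letter and with suffix f, members beside all probe sets; bars span the interquartile range over probe sets. In sample 1 the f classes lie at -0.37 and -0.39, and members without a letter at 0.22 against -0.03 for all such probe sets.

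Outlying samples were about as frequent among the members as over the array. By Dixon's rule, a gap above 0.71 of the range on the log2 scale, 13 of 100 members had an outlying sample, where 17.2% of all probe sets did. Of the 13, 8 had 2 or more samples raised to the floor, where samples have no order. Among the 68 members with a mean above the median there were 5, or 7.35%, where 6.04% of all probe sets with such a mean did: Uqcrc1, Uqcrc2, Uqcrh and Cox5b in sample 1, and Atp5pb in sample 5. Uqcrh, the hinge protein of complex III, had 2453, 1392, 1472, 1543 and 1352. Of the 4 in sample 1, 3 were high there and Uqcrc2 was low.

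Other mitochondrial genes were described from separate lists, again with 44.5% of named genes above the limit. The TCA cycle and pyruvate dehydrogenase list had 14 of 15 measured genes above it, among them citrate synthase, Cs, at 1053, 857, 1147, 1140.4 and 972. Its 1 gene below was Idh3b, a subunit of isocitrate dehydrogenase, at 24.2, 16.9, 11.03, 33.8 and 19.6. Assembly factors had 8 of 9, among them Surf1 at 416, 366, 399, 492 and 734 and the copper chaperone gene Cox17 at 1905, 4589, 2872, 3014 and 1832, both acting in building complex IV. Electron carriers and quinone synthesis had 7 of 10. Cycs, the cytochrome c of most tissues, had 138, 326, 460.5, 281 and 292, and the testis form Cyct 26.4, 53.3, 113, 77.4 and 28.3.

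Mitochondrial carriers and porins had 7 of 11 genes above the limit, where 44.5% of named genes were. Slc25a4, an adenine nucleotide translocator that exchanges the ATP made by ATP synthase for ADP, had 983, 2181, 1310.4, 1348 and 1109.7, highest in sample 2. The phosphate carrier gene Slc25a3 had 58.2, 75.96, 38.1, 34.4 and 29.3, below the median throughout. Regulators of mitochondrial gene expression had 5 of 12, close to the 44.5% of named genes. A further 5 were above the median on some arrays and 2 on none. Those above the limit included the ETS factor gene Gabpa at 231, 284, 323, 408 and 152, the nuclear receptor gene Esrra at 346, 317, 413, 321 and 635 and Yy1 at 572, 1967, 968, 1612 and 687.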

How the data were processed

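Total RNA of 5 samples was hybridised to 1-colour arrays, 1 array per sample. Per the labels, RNA preparation, labelling and hybridization followed an earlier publication; scanner and software are, in the sources used here, not given. The deposited values are linear intensities, 1 per probe set, that the authors had scaled: 2% trimmed means lay between 198.2 and 198.7 in 4 arrays and at 996.1 in sample 1. The depth of reads has no counterpart here, and the number of arrays limits the precision.

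Of 12488 deposited probe sets, 66 controls were left out. Each array was multiplied to the median of 103.4. Before log2, values below the 25th percentile (30.0) were raised to it. Gene symbols came from the platform annotation: 10833 probe sets had 1 symbol, 396 several and 1193 were not listed. With 1 group no test between groups was possible. Shifts and SDs used probe sets with a mean log2 signal above the array median. Per-sample values were given for complex IV and c ring isoforms, the 2 genes with the highest and the 2 with the lowest signal of each complex, members with an outlying sample, and genes whose probe sets disagreed, with others shown by role. From the other gene lists, the first 4 measured genes were eligible to be named, with Actc1 named besides after its values were seen. The members, lists and this rule were chosen with earlier results of these data known. Alternatives covered scaling, floor, limit, filter, probe set choice, each sample left out, and the motif search. The calculations were tested on simulated data. Python 3.11.15, numpy 2.4.6, pandas 2.3.3 and matplotlib 3.10.9 were used.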

Additional observations from a re-analysis of the deposited data

Results flagged for a closer look

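In 13 of the 100 member probe sets 1 sample lay apart from the other 4, with a gap to its neighbour above 0.71 of the whole range on the log2 scale. Chance gives such a gap in about 1 in 20 groups, and 17.2% of all probe sets showed one. In sample 1, Uqcrc2 was low with a ratio of 0.78, while Uqcrh (0.78), Uqcrc1 (0.72) and Cox5b (0.73) were high. In sample 5, Atp5pb was high with a ratio of 0.74. None of these 5 had a sample under the floor.

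The other 8 had 2 or more samples raised to the floor, which fixes much of the ratio. The ratio was 1 for Ndufa12 and for the lower probe sets of Ndufb7 and Cox8b, all high in sample 1. It was also 1 for both low probe sets of Cox6c, with sample 2 high in the one of suffix i and sample 4 in the one of suffix r. The lower probe set of Ndufb6 reached 0.79 with sample 2 high, and the lower probe sets of Ndufb2 reached 0.83 and 0.97 with sample 4 high. The Ndufb2 probe set at 0.83 had 29.8, 36.1, 6.32, 91.9 and 23.3.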

How the results depend on the processing

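Of 106 values recomputed under alternatives, 87 moved by less than the tolerance (0.13 for log2 values, 1.5 times for counts) and 19 moved more. Shares of genes with the NRF1-type word were judged by a binomial confidence interval of the main share instead. Counts were compared as numbers even where fewer members were tested, so 41 of 63 is among those moved from 64 of 100. With values as deposited, the median SD was 1.21, and the shifts of samples 1 to 5 were 2.08, -0.45, -0.52, -0.52 and -0.51. An outlying sample was then found in 63 members and in 4993 of all 12422 probe sets. In these values sample 1 was not brought to the level of the others. Quantile normalization gave shifts of -0.12 in sample 4 and -0.01 in sample 5, and the trimmed mean -0.06 in sample 4. Of 55 recomputed shifts, 6 took the other sign. One probe set per gene gave a median level of 2.88 and 6 outlying, a floor at the 10th percentile 6 outlying, and a mean above the median only 5 outlying. Over all genes or probe sets the same settings gave 1169 of 8251, 1221 of 12422 and 351 of 5814 outlying. Leaving out each sample gave 64 to 65 members above the limit, a level of 1.80 to 1.88, an SD of 0.31 to 0.43 and 12 to 22 outlying, the 22 without sample 5. Of all 12422 probe sets, 2120 to 2282 were outlying, the 2282 also without sample 5. The shifts then ran from 0.14 to 0.22, 0.03 to 0.08, -0.10 to 0.01, 0.08 to 0.14 and -0.23 to -0.14 for samples 1 to 5. Limits at the 40th and 75th percentile left 68 and 48 of 100 members, against 42.9% and 17.4% of all probe sets, and 3 arrays sufficing left 67, against 48.9%. With probe sets lacking a suffix letter only, chosen after seeing the data and rescaled among themselves, 41 of 63 were above the limit, the level was 2.51 and 7 had an outlying sample. Of all 9614 such probe sets, 3616 were above the limit and 1636 had an outlying sample. In the 250 bases before the start alone the NRF1-type word was in 17.2% of member genes, against 10.9% of genes on the array, in place of 25.9% and 13.2%. With 1 mismatch it was in 63.8% of member genes, against 44.0% of genes on the array. No paired analysis was possible because all samples form 1 group.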
